A study of Mus musculus with 4 samples.

Results

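The aminoacyl-tRNA synthetases are the enzymes that join each amino acid to its transfer RNA, and they are described here in single cells of the mouse small intestinal crypt with and without the amino acid transporter SLC7A5. The members were chosen by gene symbol, and they make up 37 of the 27998 genes in the count tables. Of these, 20 encode cytosolic enzymes or their subunits, 16 encode enzymes of the mitochondrion, which carry the suffix 2, and 1, *Tarsl2*, encodes a second cytosolic threonyl-tRNA synthetase. All 37 were found in the tables and passed the filter on low counts in the comparisons of Paneth cells and of other cells.

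Cytosolic synthetases supply the ribosomes that translate nuclear genes, whereas the mitochondrial ones are made in the cytosol from separate nuclear genes and charge the transfer RNAs of the mitochondrial genome. *Gars* and *Kars* are the exceptions, since each serves both compartments from a single gene. Several cytosolic enzymes sit in the multisynthetase complex, which is held together by scaffold proteins such as AIMP1. When uncharged transfer RNA builds up, the kinase GCN2 phosphorylates the initiation factor eIF2, the transcription factor ATF4 is made, and ATF4 acts on genes of amino acid uptake, synthesis and charging, a program known as the integrated stress response. SLC7A5 imports large neutral amino acids, among them leucine, isoleucine, valine, phenylalanine, tyrosine, tryptophan, methionine and histidine. Paneth cells are secretory cells at the crypt base that make large amounts of antimicrobial peptides, including the alpha-defensins encoded by the *Defa* genes.

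Crypts were isolated from the small intestine of mice aged 8 weeks, and live epithelial cells were sorted from them for EpCAM and against the leukocyte marker CD45. There were 2 libraries labelled slc7a5 fl/fl (floxed *Slc7a5* without Cre, the controls) and 2 labelled slc7a5 IEC-KO (the same floxed alleles with Cre driven by the villin promoter, active in intestinal epithelial cells), called fl/fl and IEC-KO in what follows. Both genotypes thus carried the floxed alleles, and the deletion in the IEC-KO mice covers all epithelial lineages rather than Paneth cells alone. Captured transcripts were tagged near their 3′ end with a molecular barcode and counted once per barcode (UMI), and a cell was called a Paneth cell when symbols starting with *Defa* took 30% or more of its UMIs and an other cell when they took under 20%.

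The fl/fl libraries held 3633 and 3217 cells, of which 2020 and 1950 were Paneth cells and 1493 and 1178 other cells. The IEC-KO libraries held 10004 and 9644 cells, of which 2019 and 2336 were Paneth cells and 6680 and 6090 other cells. Depth moved with genotype: the median Paneth cell had 46965 and 52852 UMIs in the fl/fl libraries against 13782 and 20159 in the IEC-KO libraries, and the median other cell 10598 and 11502 against 5751 and 8111. Of the 14 Paneth markers in the tables, 4 are *Defa* genes that the rule itself counts. The other 10 were all higher in Paneth than in other cells of both genotypes under TMM scaling, which assumes that most genes do not differ. The log2 medians were 3.91 in the fl/fl and 2.60 in the IEC-KO libraries, and the lowest values 1.20 and 0.44. With scaling by total UMIs the median of all genes was -1.94 and -1.17, and the marker differences in that scaling are not given here. Under TMM scaling all 12 enteroendocrine and all 10 tuft markers were also higher in fl/fl Paneth cells, with medians of 1.37 and 1.23. In IEC-KO Paneth cells 10 and 4 of them were higher. CD45 (*Ptprc*) gave 14 to 30 UMIs per library. Each library began at its own lowest depth per cell, from 3843 UMIs in IEC-KO replicate 1 to 9670 in fl/fl replicate 2, and any 2 libraries shared between 14 and 132 cell barcodes. The labels named 4 mice without saying which mouse went into which library. Each library held *Xist* transcripts and transcripts of the Y-linked genes *Ddx3y*, *Eif2s3y*, *Kdm5d* and *Uty*, so each held RNA of both sexes, and the summed level of the Y-linked genes was 13.5 and 12.8 CPM (UMIs per 1000000 UMIs) in the fl/fl libraries against 9.53 and 9.08 in the IEC-KO libraries. *Xist*, which is made from the inactive X chromosome, was at 72.3 and 74.0 CPM in the fl/fl libraries against 363 and 397 in the IEC-KO libraries. The higher *Xist* and the lower Y-linked level thus fell in the same libraries. As the libraries of a genotype may share mice, the p-values here measure only the spread between libraries, and sex makeup and genotype cannot be told apart.

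The deletion itself could not be read from these counts. *Slc7a5*, the targeted gene, was counted at 1.16 and 1.04 CPM in Paneth cells of the fl/fl libraries and at 3.42 and 3.73 in those of the IEC-KO libraries. The difference was a log2 fold change of 1.71 ± 0.15 (SE, adjusted p = 5.31e-09), with the libraries labelled IEC-KO higher. Transcripts were tagged near their 3′ end, whereas the floxed exon is the first, so a transcript that lacks this exon could still be counted. Where the reads of *Slc7a5* lie was not examined. Within these counts the genotype rests on the labels alone. The study reported by western blot that SLC7A5 protein was lost from the crypt epithelium of such mice.

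The promoters of the cytosolic members are shown first, with a search for the composite element TGATGNAA, in which ATF4 is known to bind DNA next to a C/EBP site. Whether ATF4 acts on these genes here was not tested. In RefSeq promoters of GRCm38.p6, taken from 250 bases before to 50 bases after each transcription start, this element was found on either strand in 3.969% of 32851 promoters. Of the cytosolic members, 13 had a promoter entry and 5 of these, *Aars*, *Gars*, *Iars*, *Tars* and *Yars*, held the element. The other 8, *Dars*, *Eprs*, *Farsa*, *Farsb*, *Kars*, *Mars*, *Qars* and *Sars*, did not. In Paneth cells all 5 genes with the element rose, where 20.2% of all genes tested rose and 19.8% fell. Of the 8 without it, *Eprs* and *Sars*, which had the largest rises, and 4 more rose, while *Farsa* and *Qars* fell. Whether the element bears on these differences was not tested. Of the 14 mitochondrial members with an entry, 0 held it. The windows from 120 bases before to 30 bases after the start are printed 5′ to 3′ for these 5 genes, with the element or its reverse complement in capitals, and for *Eprs*, *Sars*, *Qars* and *Aars2*, which have no match.
Aars (chr8:111033722-111033871, plus strand): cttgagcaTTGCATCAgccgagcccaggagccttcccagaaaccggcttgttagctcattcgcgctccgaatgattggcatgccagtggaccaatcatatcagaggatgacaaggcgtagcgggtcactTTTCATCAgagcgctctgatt
Gars (chr6:55037881-55038030, plus strand): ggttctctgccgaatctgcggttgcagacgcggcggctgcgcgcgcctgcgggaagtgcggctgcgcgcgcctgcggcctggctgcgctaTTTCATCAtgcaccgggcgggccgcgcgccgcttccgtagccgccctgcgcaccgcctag
Iars (chr13:49682010-49682159, plus strand): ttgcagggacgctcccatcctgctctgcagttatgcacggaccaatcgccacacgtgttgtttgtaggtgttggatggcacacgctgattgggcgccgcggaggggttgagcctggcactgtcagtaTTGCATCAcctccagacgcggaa
Tars (chr15:11399629-11399778, minus strand): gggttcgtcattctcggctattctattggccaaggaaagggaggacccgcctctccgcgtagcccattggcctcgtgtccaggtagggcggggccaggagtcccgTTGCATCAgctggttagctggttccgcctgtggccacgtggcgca
Yars (chr4:129189783-129189932, plus strand): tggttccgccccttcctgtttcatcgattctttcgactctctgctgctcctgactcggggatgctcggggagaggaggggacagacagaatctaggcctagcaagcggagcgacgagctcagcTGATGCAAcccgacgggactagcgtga
Eprs (chr1:185362924-185363073, plus strand): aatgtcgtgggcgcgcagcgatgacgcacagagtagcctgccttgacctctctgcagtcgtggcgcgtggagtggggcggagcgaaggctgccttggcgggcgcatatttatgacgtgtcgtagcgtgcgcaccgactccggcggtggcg
Sars (chr3:108445230-108445379, minus strand): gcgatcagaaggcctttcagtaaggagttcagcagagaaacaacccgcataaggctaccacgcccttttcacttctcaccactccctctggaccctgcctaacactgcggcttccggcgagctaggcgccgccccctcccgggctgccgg
Qars (chr9:108507885-108508034, plus strand): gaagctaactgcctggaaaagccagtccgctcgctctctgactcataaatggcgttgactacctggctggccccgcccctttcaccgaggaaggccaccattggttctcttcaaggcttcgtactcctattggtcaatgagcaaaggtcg
Aars2 (chr17:45506712-45506861, plus strand): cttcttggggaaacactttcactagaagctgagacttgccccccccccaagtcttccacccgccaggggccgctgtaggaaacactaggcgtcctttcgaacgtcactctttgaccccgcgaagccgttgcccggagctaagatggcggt
*Aars*, for alanine, had 2 matches and *Gars*, *Iars*, *Tars* and *Yars* 1 each. A match is a string of letters in a promoter and says nothing of binding, and the absence of a match says only that these letters are not in the window searched.

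In Paneth cells, the cytosolic synthetases were mostly higher in the IEC-KO libraries and the mitochondrial ones mostly were not. Of the 20 cytosolic members, 16 were higher and 2 lower past an adjusted p of 0.05, where 20.2% of the 12492 genes tested were higher and 19.8% lower (40% either way). Of the 16 mitochondrial members, 2 were higher and 3 lower. The median log2 fold change was 0.72 over the cytosolic and -0.16 over the mitochondrial members, against -0.0002 over all genes tested. Both IEC-KO libraries lay above both fl/fl libraries in 17 cytosolic (85%) and 4 mitochondrial members (25%), against 34.5% of all genes, and below them in 3 (15%) and 7 (43.8%), against 35.1%. Levels of genes in a class are CPM after TMM scaling, which sets the libraries' scale so that most genes do not differ. When libraries were scaled by their total UMIs alone, the median of all genes moved to 0.62 and 8795 genes were called higher and 454 lower, in place of 2519 and 2474. All 20 cytosolic members were then called higher with a median of 1.34. Of the 16 mitochondrial members 11 were called higher and 0 lower, and their median became 0.46. The gap between the compartments thus stayed, while the direction of the mitochondrial enzymes did not.

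In Paneth cells the 6 largest differences belonged to enzymes for amino acids outside the large neutral group. *Eprs* (GRCm38 chr1:185363044-185428360, plus strand), whose product charges both glutamate and proline and is part of the multisynthetase complex, was counted at 15.2 and 17.5 CPM in the fl/fl libraries and 48.2 and 44.5 in the IEC-KO libraries. Its level was 2.83-fold higher in the IEC-KO libraries, a log2 fold change of 1.50 ± 0.076 (SE, adjusted p = 1.06e-12), and the genotypes did not overlap. *Sars* (chr3:108424865-108445209, minus strand), for serine, was at 32.00 and 29.0 CPM in the fl/fl libraries and 78.1 and 81.7 in the IEC-KO libraries, a difference of 1.39 ± 0.071 (SE, adjusted p = 1.05e-12). *Gars* (chr6:55038007-55079500, plus strand), for glycine, was at 20.0 and 19.3 CPM in the fl/fl libraries and 47.8 and 48.1 in the IEC-KO libraries, a difference of 1.29 ± 0.067 (SE, adjusted p = 1.57e-12). In both genes each IEC-KO library was more than 2 times the highest fl/fl library. *Nars*, for asparagine, was at 48.9 and 49.0 CPM in the fl/fl libraries and 101 and 106 in the IEC-KO libraries, a difference of 1.08 ± 0.068 (SE, adjusted p = 3.59e-11). *Rars*, for arginine, was at 16.9 and 15.6 CPM in the fl/fl libraries and 33.4 and 33.5 in the IEC-KO libraries, a difference of 1.05 ± 0.070 (SE, adjusted p = 9.98e-11). *Aars* (chr8:111033144-111057664, plus strand), for alanine, was at 20.3 and 21.4 CPM in the fl/fl libraries and 41.1 and 37.9 in the IEC-KO libraries, a difference of 0.92 ± 0.070 (SE, adjusted p = 8.28e-10). In all 3 genes both IEC-KO libraries lay above both fl/fl libraries.

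The others of this group rose by smaller amounts, except *Qars*. *Cars*, for cysteine, was at 10.6 and 9.09 CPM in the fl/fl libraries and 16.5 and 15.96 in the IEC-KO libraries, a difference of 0.72 ± 0.081 (SE, adjusted p = 2.77e-07). *Tars*, for threonine, was at 20.5 and 20.5 CPM in the fl/fl libraries and 34.6 and 33.0 in the IEC-KO libraries, a difference of 0.72 ± 0.067 (SE, adjusted p = 1.94e-08). *Dars* (chr1:128363707-128417368, minus strand), for aspartate and a member of the multisynthetase complex, was at 6.18 and 7.68 CPM in the fl/fl libraries and 9.02 and 9.45 in the IEC-KO libraries, a difference of 0.42 ± 0.10 (SE, adjusted p = 0.00140), and its fl/fl libraries differed from each other by about as much as the closest libraries of the 2 genotypes did. *Kars*, for lysine, was at 14.1 and 13.8 CPM in the fl/fl libraries and 16.7 and 16.9 in the IEC-KO libraries, a difference of 0.27 ± 0.071 (SE, adjusted p = 0.00467). *Qars*, for glutamine, was the exception and fell, from 14.3 and 13.4 CPM in the fl/fl libraries to 11.3 and 12.3 in the IEC-KO libraries, a log2 fold change of -0.22 ± 0.077 (SE, adjusted p = 0.0243). In all, 10 of the 11 cytosolic members for amino acids outside the large neutral group rose and 1 fell, with a median of 0.92.

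Of the 9 cytosolic members for large neutral amino acids, the substrates of SLC7A5, 6 rose, 1 fell and 2 did not pass the test, with a median of 0.41. *Lars*, for leucine, was at 11.2 and 11.1 CPM in the fl/fl libraries and 21.1 and 19.7 in the IEC-KO libraries, a difference of 0.87 ± 0.073 (SE, adjusted p = 3.80e-09). *Yars*, for tyrosine, was at 9.32 and 9.04 CPM in the fl/fl libraries and 17.5 and 15.8 in the IEC-KO libraries, a difference of 0.85 ± 0.078 (SE, adjusted p = 1.36e-08). *Iars*, for isoleucine, was at 5.90 and 6.17 CPM in the fl/fl libraries and 10.4 and 10.5 in the IEC-KO libraries, a difference of 0.79 ± 0.082 (SE, adjusted p = 8.39e-08). These 3 genes were 1.82-fold, 1.80-fold and 1.73-fold higher, with no overlap of the genotypes. *Wars*, for tryptophan, was at 51.2 and 46.6 CPM in the fl/fl libraries and 74.6 and 78.0 in the IEC-KO libraries, a difference of 0.64 ± 0.070 (SE, adjusted p = 1.73e-07). *Mars*, for methionine, was at 8.05 and 7.90 CPM in the fl/fl libraries and 10.5 and 9.18 in the IEC-KO libraries, a difference of 0.29 ± 0.085 (SE, adjusted p = 0.00926). The 2 subunits of the phenylalanine enzyme went opposite ways. *Farsb*, the beta subunit, was at 19.4 and 18.1 CPM in the fl/fl libraries and 24.99 and 24.8 in the IEC-KO libraries, a difference of 0.41 ± 0.069 (SE, adjusted p = 6.93e-05). *Farsa* (chr8:84856989-84869257, plus strand), the alpha subunit, was at 10.3 and 10.7 CPM in the fl/fl libraries and 7.62 and 8.31 in the IEC-KO libraries and fell, with a log2 fold change of -0.39 ± 0.082 (SE, adjusted p = 0.000662). Neither *Vars*, for valine, nor *Hars*, for histidine, passed the test. *Vars* was at 25.2 and 25.1 CPM in the fl/fl libraries and 26.6 and 26.0 in the IEC-KO libraries, a difference of 0.061 ± 0.067 (SE, adjusted p = 0.501), and *Hars* at 6.91 and 6.80 CPM in the fl/fl libraries and 6.29 and 6.57 in the IEC-KO libraries, a difference of -0.086 ± 0.087 (SE, adjusted p = 0.463). The falls of *Farsa* and *Qars* turned into rises when libraries were scaled by total UMIs, and both genes stayed under the median of all genes in that scaling. Whether the large neutral group differed from the rest was not tested.

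**Figure D1:**
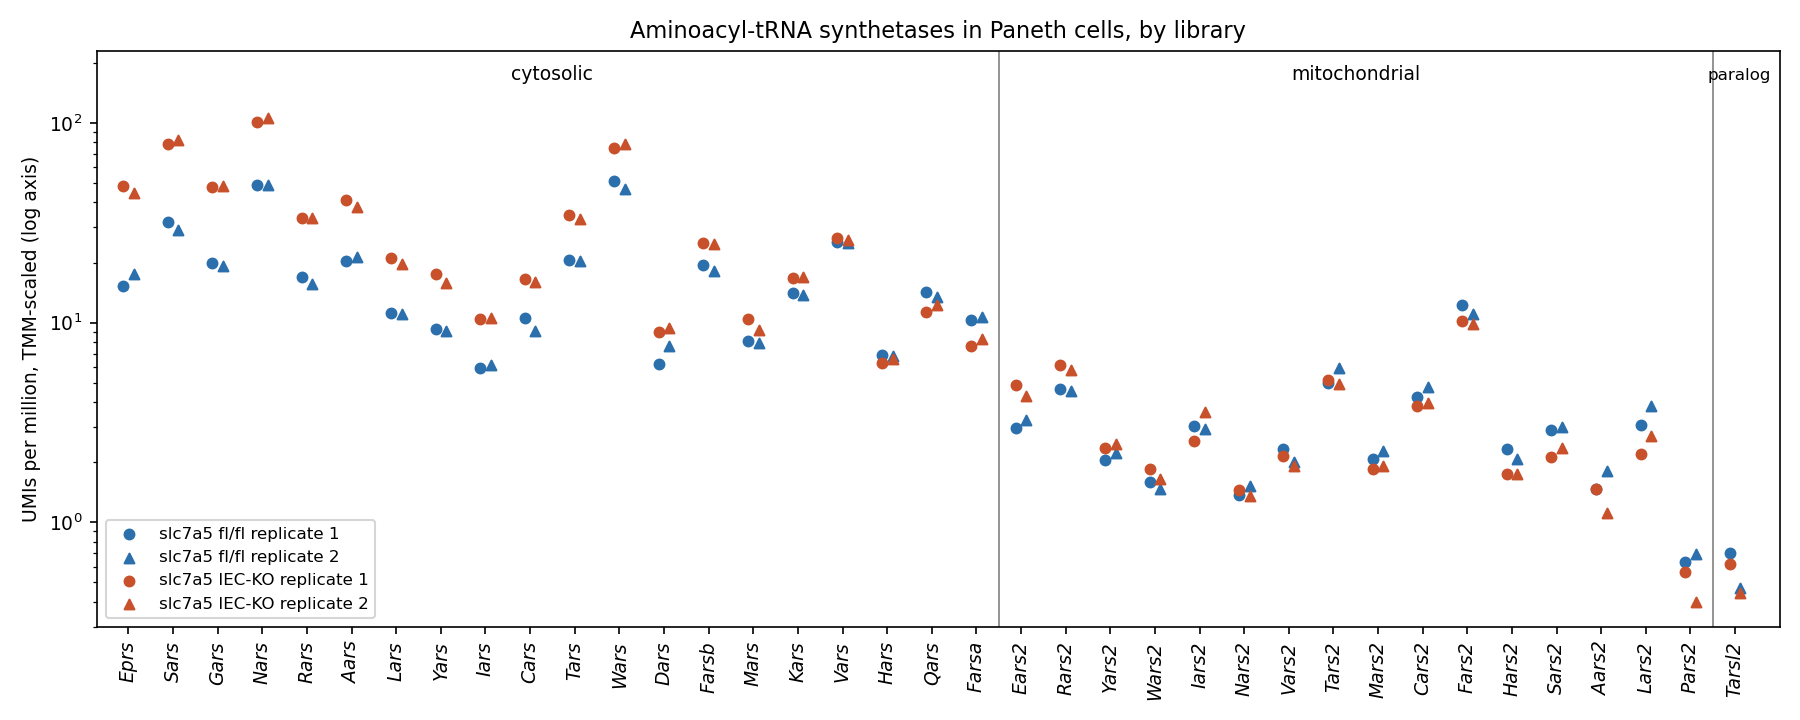
Level of each of the 37 genes in Paneth cells (CPM, TMM-scaled, log axis) in each library, fl/fl in blue and IEC-KO in orange, with circles for replicate 1 and triangles for replicate 2. Genes are ordered within each compartment by their log2 fold change. The IEC-KO points of *Eprs*, *Sars* and *Gars* sit furthest above the fl/fl points, while those of *Farsa* and *Qars* and of *Fars2*, *Sars2* and *Lars2* sit below them.

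Among the mitochondrial enzymes, *Ears2* and *Rars2* rose. *Ears2* (chr7:122037213-122067263, minus strand), which charges mitochondrial glutamate, was at 2.97 and 3.26 CPM in the fl/fl libraries and 4.87 and 4.31 in the IEC-KO libraries, a difference of 0.54 ± 0.11 (SE, adjusted p = 0.000613). *Rars2*, for arginine, was at 4.67 and 4.54 CPM in the fl/fl libraries and 6.15 and 5.77 in the IEC-KO libraries, a difference of 0.36 ± 0.095 (SE, adjusted p = 0.00399). In both, each IEC-KO library lay above both fl/fl libraries. *Lars2*, for leucine, fell, with 3.07 and 3.84 CPM in the fl/fl libraries and 2.19 and 2.71 in the IEC-KO libraries, a log2 fold change of -0.46 ± 0.14 (SE, adjusted p = 0.0112). *Sars2*, for serine, fell, with 2.88 and 2.98 CPM in the fl/fl libraries and 2.11 and 2.35 in the IEC-KO libraries, a log2 fold change of -0.38 ± 0.13 (SE, adjusted p = 0.0270). *Fars2*, for phenylalanine, fell, with 12.2 and 11.1 CPM in the fl/fl libraries and 10.2 and 9.82 in the IEC-KO libraries, a log2 fold change of -0.22 ± 0.080 (SE, adjusted p = 0.0316). Thus *Sars* and *Lars* rose where *Sars2* and *Lars2* fell under TMM scaling, although the falls of *Fars2*, *Lars2* and *Sars2* became rises when libraries were scaled by total UMIs, and stayed under the median of all genes there. Several of the smaller differences hung on 1 library: without fl/fl replicate 1 the calls of *Dars*, *Qars* and *Fars2* ended, without fl/fl replicate 2 those of *Kars*, *Mars*, *Lars2* and *Sars2*, without IEC-KO replicate 1 those of *Mars*, *Qars*, *Lars2* and *Sars2*, and without IEC-KO replicate 2 that of *Fars2*.

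The other 11 mitochondrial members did not pass the test, with log2 fold changes from -0.53 in *Pars2* to 0.18 in *Yars2*. The partners of called cytosolic genes were counted, as fl/fl against IEC-KO libraries in CPM, at 1.46 and 1.81 against 1.47 and 1.11 for *Aars2*, at 4.24 and 4.76 against 3.83 and 3.94 for *Cars2* and at 3.02 and 2.93 against 2.54 and 3.58 for *Iars2*. They stood at 2.08 and 2.27 against 1.85 and 1.91 for *Mars2*, at 1.37 and 1.52 against 1.44 and 1.35 for *Nars2* and at 0.635 and 0.693 against 0.562 and 0.400 for *Pars2*, the proline enzyme. *Tars2* was at 4.98 and 5.93 against 5.16 and 4.94, *Wars2* at 1.60 and 1.46 against 1.85 and 1.64 and *Yars2* at 2.04 and 2.23 against 2.35 and 2.47. The genotypes overlapped in *Aars2*, *Iars2*, *Nars2* and *Tars2* and not in the other 5. Lack of overlap was common, as 34.5% of all genes lay wholly higher and 35.1% wholly lower in the IEC-KO libraries. These genes gave few UMIs, with 21 to 56 per library for *Pars2*, whose standard error of 0.27 is near the size of the rises in *Mars* and *Kars*. *Hars2* was at 2.34 and 2.07 against 1.74 and 1.75 and *Vars2* at 2.34 and 1.99 against 2.14 and 1.91, while *Tarsl2*, which overlaps *Tm2d3* on the same strand, was at 0.698 and 0.471 against 0.615 and 0.444, and none of these passed the test.

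Set side by side by amino acid, 17 pairs of a cytosolic and a mitochondrial gene could be formed, with *Eprs* set against both *Ears2* and *Pars2* and both *Fars* subunits set against *Fars2*. In Paneth cells, the log2 fold change of the cytosolic gene was the larger in 16 of these pairs, by a median of 0.71, and the exception was *Farsa* with *Fars2*. The widest gaps were those of *Eprs* with *Pars2*, at 2.03, and of *Sars* with *Sars2*, at 1.77. In other cells the cytosolic gene had the larger value in all 17 pairs, by a median of 0.82. Since the pairs share libraries and were chosen with earlier results known, these counts are a description.

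The ratio of the summed cytosolic to the summed mitochondrial members does not depend on how libraries are scaled. In Paneth cells of the fl/fl libraries, 28855 and 28901 UMIs came from the cytosolic and 4087 and 4312 from the mitochondrial members, or 7.06 and 6.70 cytosolic UMIs per mitochondrial UMI. In the IEC-KO libraries there were 23831 and 43102 against 1887 and 3375 UMIs, or 12.6 and 12.8. The mean ratio was 6.88 ± 0.25 (SD, n = 2) against 12.7 ± 0.1 (SD, n = 2), a difference of 0.88 on the log2 scale or 1.85-fold. In other cells the ratio was 6.33 and 6.14 in the fl/fl libraries and 11.01 and 11.5 in the IEC-KO libraries, a 1.81-fold difference. In both classes the difference was more than 20 times the pooled SD of the log2 ratios, which was 0.038 in Paneth and 0.041 in other cells. That SD rests on 2 libraries per genotype, which may share mice, so the multiple is a description and not a test. Without *Gars* and *Kars*, which serve both compartments, the difference was 0.87 in Paneth and 0.84 in other cells on the log2 scale. Abundant genes weigh most in these sums. In Paneth cells of fl/fl replicate 1, *Nars*, *Wars* and *Sars* gave 3851, 4031 and 2520 of the 28855 cytosolic UMIs. *Fars2* gave 960 of the 4087 mitochondrial UMIs there. The ratio without these genes was not computed.

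**Figure D2:**
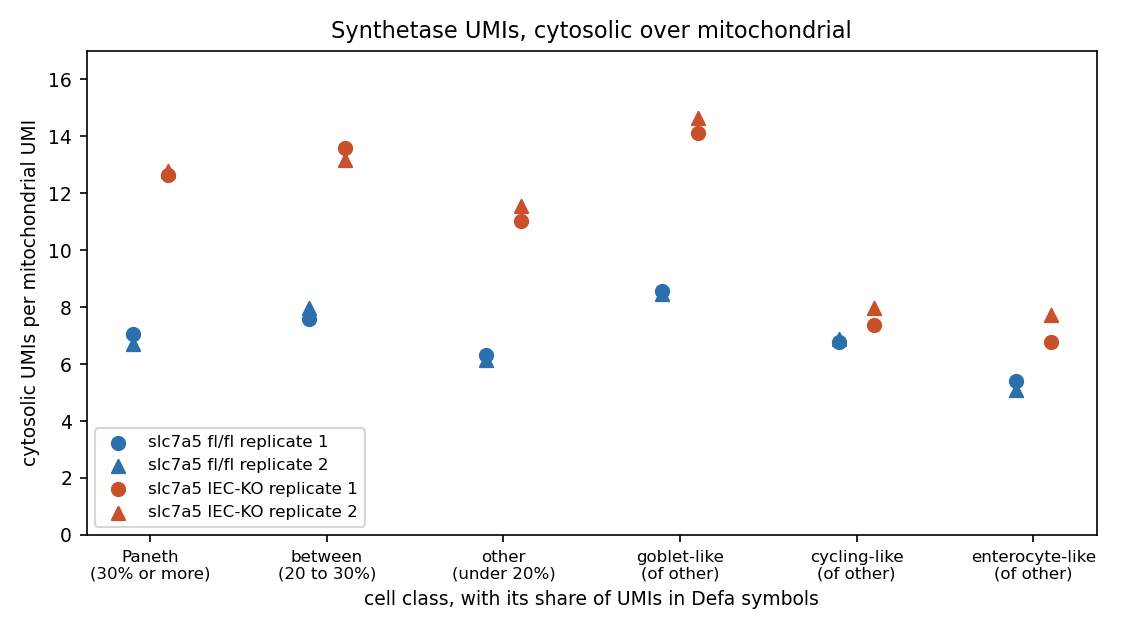
Cytosolic over mitochondrial synthetase UMIs (y axis, from 0) for each library in each cell class (x axis), fl/fl in blue and IEC-KO in orange, circles for replicate 1 and triangles for replicate 2. Both IEC-KO libraries lie above both fl/fl libraries in every class, with 14.1 and 14.6 against 8.56 and 8.46 in goblet-like cells and the smallest gap, 7.38 and 7.97 against 6.77 and 6.87, in cycling-like cells.

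In other cells, which hold the rest of the crypt epithelium, 15 cytosolic members were higher and 2 lower in the IEC-KO libraries, where 17% of the 12377 genes tested were higher and 16.7% lower (33.6% either way). The median was 0.64 over the cytosolic members, -0.17 over the mitochondrial members and 0.0035 over all genes. Both IEC-KO libraries lay above both fl/fl libraries in 16 cytosolic members (80%) and 1 mitochondrial member (6.25%), against 33.5% of all genes, and below them in 2 (10%) and 9 (56.2%), against 33.4%. *Sars* led here, with 70.8 and 65.9 CPM in the fl/fl libraries and 178 and 203 in the IEC-KO libraries, a log2 fold change of 1.48 ± 0.074 (SE, adjusted p = 9.32e-12). *Gars* followed with 52.2 and 51.8 CPM in the fl/fl libraries and 121 and 124 in the IEC-KO libraries, a difference of 1.23 ± 0.065 (SE, adjusted p = 1.91e-11). *Rars* was at 47.7 and 42.1 CPM in the fl/fl libraries and 91.9 and 91.7 in the IEC-KO libraries, a difference of 1.03 ± 0.070 (SE, adjusted p = 1.03e-09). All 3 rose more than 2-fold, with no overlap of the genotypes. The other 12 that rose were *Yars*, *Nars*, *Lars*, *Eprs*, *Wars*, *Cars*, *Iars*, *Tars*, *Aars*, *Mars*, *Farsb* and *Kars*, from 0.99 in *Yars* to 0.19 in *Kars*. *Hars* fell with -0.23 and *Qars* with -0.21, while *Dars*, *Farsa* and *Vars* did not pass the test.

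No mitochondrial member rose in other cells, with 0 of 16 called higher by edgeR, 0 at an unadjusted p under 0.05 and 0 by DESeq2. *Hars2* fell, from 6.40 and 6.54 CPM in the fl/fl libraries to 4.91 and 4.76 in the IEC-KO libraries, a log2 fold change of -0.42 ± 0.13 (SE, adjusted p = 0.0166). When libraries were scaled by total UMIs, the median of all genes moved to -0.15, with 1172 genes called higher and 3787 lower in place of 2102 and 2061. In that scaling 14 cytosolic members were still higher. Of the 16 mitochondrial members 8 were then called lower and 0 higher, with a median of -0.32, whereas in Paneth cells the same scaling called 11 higher. DESeq2 called 0 cytosolic and 0 mitochondrial members lower and also ended the call of *Kars*. Thinning every cell to 2000 UMIs ended the calls of *Farsb*, *Hars*, *Kars*, *Mars*, *Qars* and *Hars2*. Taking other cells under 10% *Defa* ended those of *Kars*, *Qars* and *Hars2*. With 1 lower UMI limit for all libraries those of *Hars*, *Kars* and *Hars2* ended. *Kars* lost its call with total UMIs too. Without fl/fl replicate 1 the calls of *Hars*, *Kars*, *Qars* and *Hars2* ended, without fl/fl replicate 2 those of *Farsb*, *Hars*, *Kars* and *Hars2*, and without IEC-KO replicate 2 those of *Kars* and *Qars*. The makeup of these cells moved with genotype as well. All 16 cycling markers fell (median -0.89), and clusters named from Paneth markers held 21.6% and 19.7% of the other cells in the IEC-KO libraries and none in the fl/fl libraries when each genotype was clustered on its own. Of the 3 clusters so named, 2 had no Paneth marker among their 10 leading genes. When both genotypes were clustered together, 1 of the clusters named from Paneth markers held 688 and 517 fl/fl cells and 0 and 4 IEC-KO cells. The part of this makeup in the result was not tested.

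Other cells were clustered within each genotype, without the synthetase genes, and clusters were named from markers. The makeup of a named class may itself differ between genotypes, and its own markers are given beside its values. Goblet-like cells, which secrete mucin, numbered 419 and 317 in the fl/fl libraries and 2426 and 2265 in the IEC-KO libraries, and there 12 cytosolic members were higher and 1 lower, where 8% of 10428 genes were higher and 6.95% lower (15% either way). The median was 0.56 over the cytosolic and 0.0056 over the mitochondrial members. *Sars* differed by 1.60 ± 0.091 (SE, adjusted p = 2.15e-11), *Gars* by 1.25, *Rars* by 1.19 and *Nars* by 1.16 on the log2 scale, and *Eprs*, which led in Paneth cells, by 0.85. *Hars* fell here, with -0.36, as it did over all other cells. Of the mitochondrial members, *Ears2* alone was called, with 0.78 ± 0.26 (SE, adjusted p = 0.0499), close to the threshold. Of the 15 goblet markers, 7 were lower and 1 higher in the IEC-KO libraries, and 8 of 14 Paneth markers were lower and 3 higher. When both genotypes were clustered together, the clusters named goblet held 2112 and 1787 IEC-KO cells and no fl/fl cell, so the goblet-like cells of the genotypes lay in different clusters.

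Cycling-like cells, named from markers of dividing transit amplifying cells, numbered 286 and 225 against 964 and 936. The fl/fl cluster of 275 cells and the IEC-KO cluster of 668 cells in this class each had 1 such marker among their leading genes. In them 7 cytosolic members were higher and 0 lower, where 7.19% of 10106 genes were higher and 7.1% lower (14.3% either way), and the median was 0.23 over the cytosolic and 0.15 over the mitochondrial members, where they were 0.64 and -0.17 over all other cells. These were *Rars* with 0.85, *Sars* with 0.77, *Gars* with 0.65, *Nars* with 0.43, *Yars* with 0.42, *Eprs* with 0.30 and *Aars* with 0.29. At an unadjusted p under 0.05 edgeR gave 1 lower cytosolic member and DESeq2 called 0 lower. Without fl/fl replicate 1, 4 members were called higher. The fl/fl libraries also held 263 and 225 cells in clusters named from stem cell markers, which had no counterpart by name in the IEC-KO libraries. An IEC-KO cluster of 668 cells that was named cycling shared *Amica1*, *Ifitm3*, *Cnn3*, *Cps1*, *Hmgn1*, *Stmn1* and *Clca3b* among its leading genes with 1 of these fl/fl stem clusters. Within cycling-like cells 6 of 10 stem cell markers were higher in the IEC-KO libraries and 0 lower, with a median of 0.96, and 9 of 16 cycling markers were lower and 1 higher, with a median of -0.28, so the cycling-like cells of the genotypes differed in makeup. With both genotypes clustered together, 10 cytosolic members were higher and 1 lower, with a median of 0.35, and the mitochondrial median turned to -0.18. Each joint cluster named cycling still held almost only cells of 1 genotype. The joint cluster of 1226 cells held 2 and 2 fl/fl cells, and that of 498 cells held 1 and 0 IEC-KO cells. The joint clustering thus did not even out the makeup of the genotypes.

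Enterocyte-like cells, the absorptive lineage, numbered 243 and 193 against 682 and 708. In them 12 cytosolic members were higher and 0 lower, where 7.44% of 9524 genes were higher and 6.54% lower (14% either way), and the median was 0.58 over the cytosolic and 0.091 over the mitochondrial members. The class moved with genotype too: 14 of 15 enterocyte markers were lower in the IEC-KO libraries (median -0.60), while 10 of 16 cycling markers (0.56) and 5 of 9 stem cell markers tested (0.90) were higher. The part of this in the differences was not tested. The lower count of cytosolic members was 0 at an unadjusted p under 0.05 and by DESeq2 too. *Gars* differed by 0.93, *Aars* by 0.91, *Mars* by 0.90 and *Cars* by 0.84. *Vars*, which passed the test in no other class, differed by 0.59 ± 0.15 (SE, adjusted p = 0.0145). When every cell was thinned to 2000 UMIs, 0 cytosolic members had an adjusted p under 0.05, with a median of 0.42, and 7 were higher without fl/fl replicate 2 and 6 without IEC-KO replicate 2. No mitochondrial member was called in cycling-like (0 of 16) or enterocyte-like cells (0 of 15 tested) by edgeR or DESeq2, while 3 and 1 had an unadjusted p under 0.05. Across all 5 classes, *Aars*, *Eprs*, *Gars*, *Nars*, *Rars* and *Sars* were higher in the IEC-KO libraries in each, and *Farsa*, *Hars* and *Qars* in none. Goblet-like, cycling-like and enterocyte-like cells are parts of the other cells, so the 5 classes are not separate sets of cells. The share of all genes called higher in all 5 was not counted. The median over cytosolic members for large neutral against those for other amino acids was 0.37 against 0.71 in other cells. It was 0.22 against 0.63 in goblet-like, 0.19 against 0.29 in cycling-like and 0.59 against 0.57 in enterocyte-like cells.

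**Figure D3:**
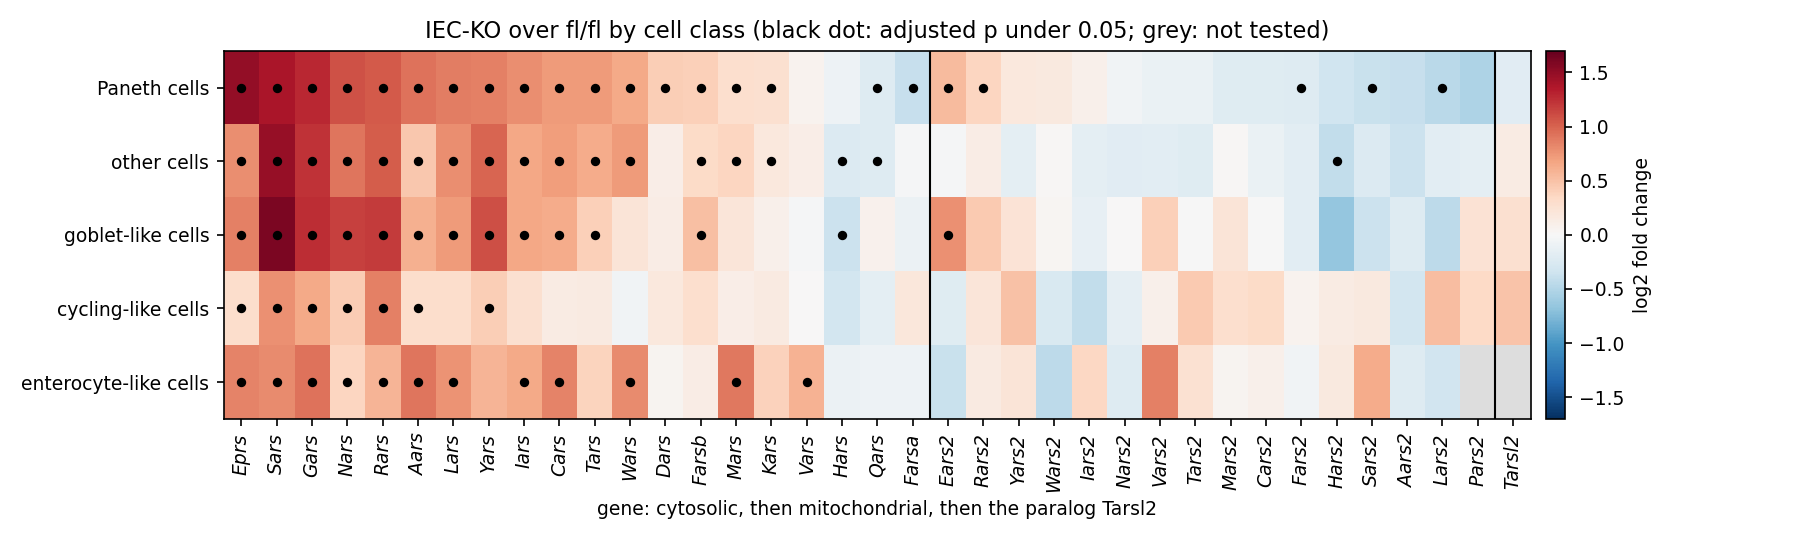
Log2 fold change of IEC-KO over fl/fl for each gene (columns, ordered as in the plot of levels in Paneth cells) in each cell class (rows), red for higher and blue for lower in IEC-KO libraries, with a black dot where the adjusted p was under 0.05. The dots of the first 6 cytosolic genes run through all 5 classes, and the mitochondrial columns are pale with 7 dots in all. Goblet-like, cycling-like and enterocyte-like cells are parts of the other cells.

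The genotype difference was then compared between Paneth and other cells in 1 model, with the library as a block. It was larger in Paneth cells for 4 cytosolic members and smaller for 1, where 11% of 13039 genes were larger and 11.2% smaller (22.3% either way). *Eprs* gave the largest interaction, 0.72 ± 0.065 (SE, adjusted p = 7.36e-19): on the log2 scale it rose by 1.50 ± 0.076 in Paneth cells and by 0.79 ± 0.065 in other cells. *Aars* followed with 0.47 ± 0.064 (SE, adjusted p = 6.54e-10), from 0.92 ± 0.070 in Paneth cells and 0.46 ± 0.064 in other cells. The interaction was 0.32 ± 0.094 (SE, adjusted p = 0.00647) for *Dars* and 0.18 ± 0.059 (SE, adjusted p = 0.0137) for *Nars*. For *Farsa* it was -0.36 ± 0.092 (SE, adjusted p = 0.00141), with -0.39 ± 0.082 in Paneth cells and -0.014 ± 0.075 in other cells, and it turned to 0.40 when libraries were scaled by total UMIs, which moved the median of all genes to 0.75. *Ears2* was the 1 mitochondrial member called, with 0.57 ± 0.14 (SE, adjusted p = 0.000649), from 0.54 ± 0.11 in Paneth cells and -0.022 ± 0.10 in other cells, where it was counted at 10.7 and 9.85 CPM in the fl/fl libraries and 9.80 and 10.4 in the IEC-KO libraries.

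For several genes with large rises the interaction did not pass the test, with 0.059 ± 0.064 for *Gars*, -0.081 ± 0.063 for *Sars* and 0.021 ± 0.068 for *Rars* (SE). *Eprs* and *Aars* kept their calls in all 13 alternatives to this fit. *Dars*, *Nars* and *Farsa* lost theirs under DESeq2, when cells were thinned to 2000 UMIs and when Paneth cells were taken from 40% and other cells under 10% *Defa* UMIs, and *Ears2* lost its call under the first 2 of these. Leaving out fl/fl replicate 1 also ended the calls of *Dars*, *Nars* and *Ears2*, with 2 cytosolic members left as larger, and leaving out fl/fl replicate 2 ended those of *Farsa* and *Nars*. Without a low-count filter the call of *Nars* ended, and with 1 lower UMI limit for all libraries that of *Ears2*.

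**Figure D4:**
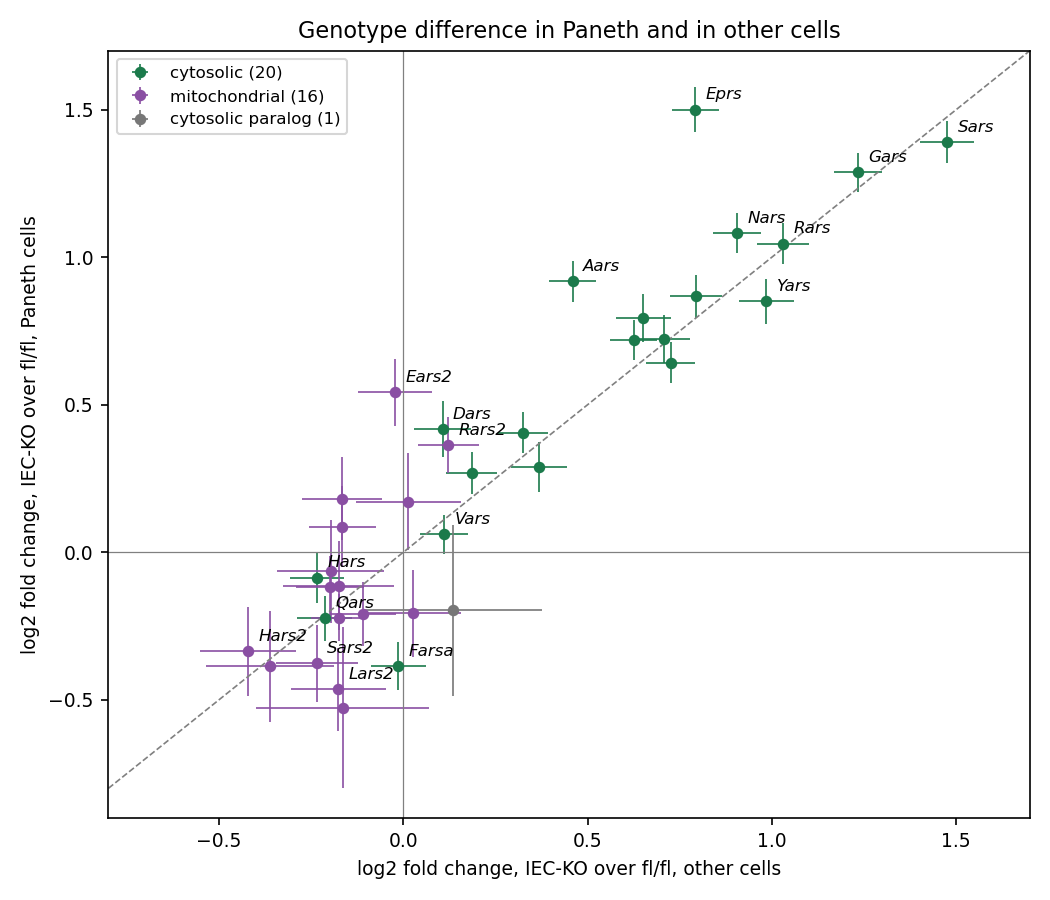
Log2 fold change of IEC-KO over fl/fl in other cells (x axis) and in Paneth cells (y axis) for the 20 cytosolic genes in green, the 16 mitochondrial genes in purple and *Tarsl2* in grey, with bars of 1 SE and the dashed line of equal change. *Eprs*, *Aars* and *Ears2* stand above the line and *Farsa* below it, while *Sars*, *Gars* and *Rars* lie close to it. Both axes share libraries, so the spread of points along the line is not a test.

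Paneth cells were also compared with other cells within each genotype. In the fl/fl libraries, 10 cytosolic members were higher in Paneth cells and 6 lower, where 27.7% of genes were higher and 30.7% lower (58.4% either way). *Wars* was higher by 0.58, *Yars* by 0.52 and *Vars* by 0.47, and *Eprs* was lower, with -0.42, as were *Hars* with -0.34, *Nars* with -0.33, *Dars* with -0.27, *Aars* with -0.17 and *Tars* with -0.15. In the IEC-KO libraries, 14 were higher and 2 lower, where 24.7% were higher and 25.5% lower (50.2% either way). There *Eprs* and *Aars* stood on the other side, higher in Paneth cells by 0.30 and 0.30, and the 2 lower were *Hars* with -0.19 and *Nars* with -0.15. Of the mitochondrial members, *Lars2* was higher and *Iars2* lower in Paneth cells of both genotypes, by 0.65 and -0.58 in the fl/fl libraries and by 0.38 and -0.32 in the IEC-KO libraries. *Vars2* was higher in both as well, *Yars2* lower in the fl/fl and *Ears2* higher in the IEC-KO libraries. With scaling by total UMIs, all 20 cytosolic and all 16 mitochondrial members were lower in Paneth cells of both genotypes, as the median of all genes moved to -1.94 and -1.17. The cytosolic medians were then -1.82 and -0.96.

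The share of *Defa* UMIs in a cell gives a finer scale than the 2 classes. In fl/fl cells with under 5% *Defa*, the cytosolic members were at 1178 and 1164 CPM, here per 1000000 UMIs outside *Defa*. They were at 814 and 904 between 20% and 30%, and 518 and 495 from 40% to 60%. In the IEC-KO libraries the corresponding values were 1647 and 1729, then 1440 and 1512, then 1138 and 1198. Thus the level per UMI outside *Defa* fell along the scale in every library, and the IEC-KO libraries lay above the fl/fl libraries in every bin. Under TMM scaling the cytosolic median of Paneth over other cells was 0.11 in the fl/fl and 0.20 in the IEC-KO libraries. The mitochondrial members were at 191 and 202 CPM under 5% *Defa* in the fl/fl libraries and 159 and 157 in the IEC-KO libraries. From 40% to 60% they were at 74.0 and 73.5 against 95.7 and 99.1, so the order of the genotypes turned in this scaling. The TMM-scaled mitochondrial median did not turn, with -0.16 in Paneth and -0.17 in other cells. UMIs outside *Defa* still include other Paneth transcripts such as *Lyz1*, and no reference over all genes was set beside these sums. The part of scaling in these trends was not tested. Just under the limit of Paneth cells, from 28% to 30% *Defa*, there were 36 and 21 fl/fl cells and 276 and 247 IEC-KO cells, and just over it, from 30% to 32%, 37 and 23 against 314 and 314.

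**Figure D5:**
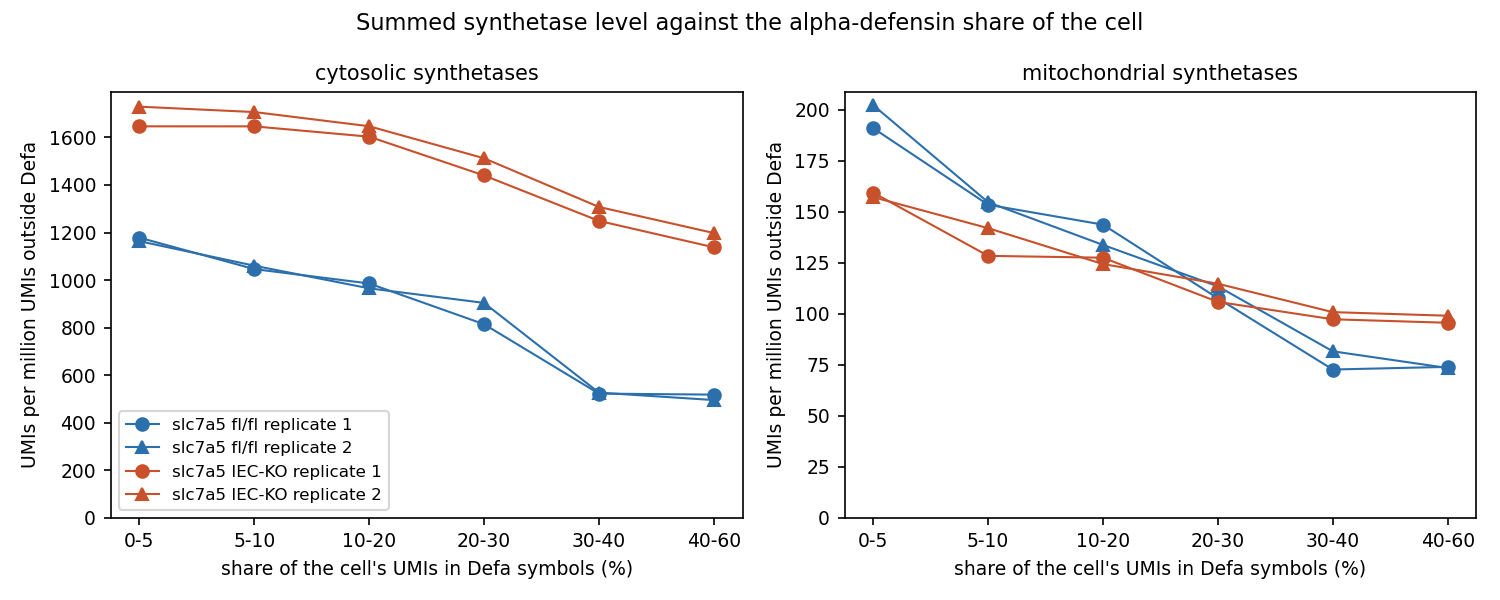
Summed level of the cytosolic (left) and mitochondrial (right) synthetases, in CPM of the UMIs outside *Defa* symbols (y axes from 0), in cells binned by their share of *Defa* UMIs (x axis), for each library, fl/fl in blue and IEC-KO in orange. The cytosolic level of the IEC-KO libraries lies above that of the fl/fl libraries in every bin, whereas the mitochondrial lines cross.

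Genes that work with the synthetases were taken from lists. Of 15 partners of tRNA charging in the tables (scaffolds of the multisynthetase complex, subunits of the mitochondrial glutamyl-tRNA amidotransferase, editing and maturation enzymes and the GCN2 kinase gene *Eif2ak4*), 7 rose and 8 did not pass the test in Paneth cells, with a median of 0.35, where 20.2% of all genes rose. In other cells 2 rose and 3 fell, where 17% of all genes rose and 16.7% fell. *Aimp1*, the scaffold of the multisynthetase complex, was counted in Paneth cells at 25.7 and 25.8 CPM in the fl/fl and 42.0 and 40.2 in the IEC-KO libraries, a log2 fold change of 0.67 ± 0.067 (SE, adjusted p = 4.45e-08). *Eef1e1*, another scaffold of the complex, rose by 0.46 ± 0.082 (SE, adjusted p = 0.000119). *Gatc*, a subunit of the amidotransferase, rose by 0.54 ± 0.11 (SE, adjusted p = 0.000572), and *Dtd1*, which removes D-amino acids from transfer RNA, by 0.40 ± 0.11 (SE, adjusted p = 0.00795). Of the 8 synthetases of the complex, 7 rose in Paneth cells and *Qars* fell, with a median of 0.61, and of the 12 outside it 9 rose and *Farsa* fell, with a median of 0.72.

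All 22 effectors of the integrated stress response rose in both Paneth and other cells, with medians of 1.63 and 2.08, where 20.2% and 17% of all genes rose. The list comes from general knowledge, with earlier results of these data in view, and is no independent evidence of its direction. In Paneth cells, *Trib3*, a pseudokinase induced by ATF4, was at 0.660 and 0.483 CPM in the fl/fl and 63.2 and 52.3 in the IEC-KO libraries, a log2 fold change of 6.65 ± 0.13 (SE, adjusted p = 7.45e-20). *Stc2*, a secreted glycoprotein, rose by 5.01 ± 0.13, *Gdf15*, a secreted stress cytokine, by 4.26 ± 0.17, and *Chac1*, which degrades glutathione, by 3.79 ± 0.09 (SE). The largest rise of a synthetase, 1.50 in *Eprs*, was smaller than any of these 4. Of 10 genes known to respond to tissue dissociation, 7 rose and 2 fell in Paneth cells, where 20.2% of all genes rose and 19.8% fell. In other cells 4 of them rose, where 17% of all genes rose and 16.7% fell. Their summed level in Paneth cells was 0.591 and 0.543 per 10000 UMIs in the fl/fl against 1.10 and 1.11 in the IEC-KO libraries, on a scale of total UMIs. Markers of other lineages moved too, with all 15 enterocyte markers and 14 of 16 cycling markers lower in IEC-KO Paneth cells, while 7 of the 14 Paneth markers were lower and 4 higher, with a median of -0.91. *Lyz1*, the lysozyme of Paneth cells, was at 360 and 329 per 10000 UMIs in the fl/fl against 184 and 142 in the IEC-KO libraries. *Mmp7*, another Paneth marker, was at 15.2 and 13.6 against 30.7 and 27.4. The sum of the 14 Paneth markers, which includes *Defa* genes, was 3680 and 3679 against 3747 and 3542. The Paneth class itself thus differed with genotype, with single markers going both ways. The summed enterocyte markers went from 13.8 and 13.1 to 7.34 and 8.46 per 10000 UMIs. The summed cycling markers were at 4.71 and 4.56 against 5.83 and 5.97 per 10000 total UMIs, a direction opposite to their TMM-scaled falls. The part of dissociation, depth and lineage makeup in the synthetase differences was not tested.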

How the data were processed

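Single-cell libraries were made with the 10x Genomics 3′ kit, version 2. The authors deposited raw UMI counts per gene and cell barcode after cell calling, with no normalization. The submitters' processing notes name Cell Ranger 2.1.1 and mm10, whereas the study's methods name another Cell Ranger version. Libraries held 113529509 and 119339206 UMIs (slc7a5 fl/fl) and 87922473 and 127094508 UMIs (slc7a5 IEC-KO).

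All 26498 barcodes were kept. Scrublet scores separated too few doublets to call, so doublets were left in and, as an alternative, 1734 cells with the highest scores were removed. Cells were classed by their share of UMIs from the 13 symbols starting with Defa (30% or more, Paneth cells; under 20%, other cells). Other cells were clustered within each genotype with scanpy 1.11.5 (2000 variable genes, 30 principal components, 20 neighbours, Leiden resolution 1), and clusters were named from at least 3 markers.

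Counts were summed per library and class, and edgeR 4.0.16 in R 4.3.3 was used for a two-sided quasi-likelihood F test after filterByExpr and TMM scaling, with Benjamini-Hochberg adjustment over all genes tested at 0.05. Standard errors are the log2 fold change over the square root of F. On simulated counts for the Paneth comparison (12267 genes), 63% of genes changed by 0.5 and 95% of genes changed by 1 on the log2 scale were called. For the interaction (12868 genes) these shares were 54% and 76%. Changed genes were drawn from those with higher counts, with rises and falls balanced and a common dispersion. Recovery among genes with few UMIs, or where many genes change, was thus not measured. Alternatives were scaling by library size, scaling without Defa and ribosomal protein genes, DESeq2 1.42.0, other count filters, the replicate number as a block, thinning to 2000 UMIs per cell, a common limit of 9670 UMIs, stricter class limits, doublets left out and each library left out. Clustering both genotypes together was added after seeing the data. Values were given for members called in Paneth cells or in the interaction and for their partners, and for the 4 largest changes of 2 lists.

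The members and lists were chosen with earlier results of these data known. Promoters came from RefSeq (GRCm38.p6) and gene positions from GENCODE M21. Promoters of *Cars*, *Hars*, *Lars*, *Nars*, *Rars*, *Vars*, *Wars*, *Hars2* and *Pars2* were not analysed here.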

Additional observations from a re-analysis of the deposited data

Results flagged for a closer look

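The genotype difference of 6 members differed between Paneth and other cells by the interaction term of the edgeR fit, out of 37 members tested. Over all 13039 genes the same term called 22.3%, a larger share than among the members. In units of log2, the difference in Paneth cells minus that in other cells was 0.72 for *Eprs*, 0.47 for *Aars*, 0.32 for *Dars*, 0.18 for *Nars*, -0.36 for *Farsa* and 0.57 for *Ears2*. The other cells of the 2 genotypes differ in makeup, and the part of this in these 6 differences was not tested. Within goblet-like cells, which fell into different clusters by genotype when both were clustered together, the genotype difference was 0.85 for *Eprs* and 0.61 for *Aars*, against 1.50 and 0.92 in Paneth cells, while *Ears2* differed by 0.78 there, against 0.54 in Paneth cells.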

How the results depend on the processing

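Scaling without Defa and ribosomal protein genes, stricter class limits and leaving doublets out were not run on goblet-like, cycling-like and enterocyte-like cells. In Paneth cells, the 16 cytosolic rises became 20 when libraries were scaled by total UMIs, 15 with DESeq2 and 11 after thinning to 2000 UMIs. DESeq2 ended the calls of *Mars*, *Qars*, *Fars2*, *Lars2*, *Rars2* and *Sars2*. Thinning ended those of *Cars*, *Dars*, *Farsa*, *Iars*, *Kars*, *Mars*, *Ears2*, *Fars2* and *Rars2*. Class limits of 40% and 10% ended those of *Dars*, *Farsa*, *Kars*, *Qars*, *Fars2*, *Lars2*, *Rars2* and *Sars2*. With these limits 0 cytosolic and 0 mitochondrial members were called lower in Paneth cells. Thinning left 9 mitochondrial members to test in Paneth and 6 in enterocyte-like cells. Leaving out a library leaves 1 sample in an arm, assumed to vary like the others. The cause of each move was not tested.

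Genes called numbered 4993 in Paneth cells, but 9249 when scaled by total UMIs, 3123 with DESeq2, 1242 after thinning and 2662 with class limits of 40% and 10%. In other cells they numbered 4163, but 2498 with DESeq2 and 1843 after thinning. For Paneth against other cells in the fl/fl libraries, 7617 became 12214 (total UMIs), 4652 (DESeq2) and 2161 (thinned), and the 10 higher cytosolic members became 0, 6 and 4. In the IEC-KO libraries, 6552 became 12004, 3297 and 2511, and 4244 with the stricter class limits, while the 14 higher cytosolic members became 0 with total UMIs. For the interaction, 2906 became 9618, 866 and 493, and 1104 with the stricter class limits, while the 4 larger cytosolic members became 20 with total UMIs and 2 under each of the other 3. In goblet-like cells, 1559 became 670 with DESeq2 and 457 after thinning. In cycling-like cells, 1445 became 464, 362, 550 with 1 UMI limit and 581 with joint clustering, and the 7 higher cytosolic members became 4 with DESeq2 and 3 after thinning. In enterocyte-like cells, 1332 became 551, 117, 2857 and 313 in the same order, and the 12 higher members became 0 after thinning. The log2 difference of the ratio in Paneth cells moved from 0.88 to 1.03 after thinning and 0.80 with the stricter class limits, and in other cells from 0.85 to 0.79 with 1 UMI limit.

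With each library left out in turn, genes called ranged from 1767 to 2302 for the interaction (1767 without fl/fl replicate 1), from 837 to 1144 in goblet-like cells (996 without fl/fl replicate 1 and 837 without IEC-KO replicate 2), from 702 to 1400 in cycling-like cells (702 and 922 without fl/fl replicates 1 and 2) and from 370 to 1174 in enterocyte-like cells (819 and 632 without fl/fl replicates 1 and 2, and 370 without IEC-KO replicate 2). Higher cytosolic members ranged from 2 to 4, from 4 to 6 in cycling-like and from 6 to 11 in enterocyte-like cells.

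Most genes whose direction turned had not passed the test. The genes called lower in Paneth cells, *Farsa*, *Qars*, *Fars2*, *Lars2* and *Sars2*, all turned with scaling by total UMIs, however. The median of all genes moved to 0.62 in that scaling. With total UMIs, the Paneth values became 0.23 in *Farsa*, 0.53 in *Hars*, 0.39 in *Qars*, 0.24 in *Aars2*, 0.41 in *Cars2*, 0.40 in *Fars2*, 0.28 in *Hars2*, 0.16 in *Lars2*, 0.42 in *Mars2*, 0.56 in *Nars2*, 0.098 in *Pars2*, 0.24 in *Sars2*, 0.51 in *Tars2*, 0.51 in *Vars2* and 0.42 in *Tarsl2*, and the interaction of *Farsa* 0.40. Thinning gave 0.22 in *Hars*, -0.20 in *Iars2* and 0.18 in *Mars2*, and stricter class limits 0.13 in *Cars2*, 0.13 in *Vars2* and 0.16 in *Tarsl2*. With a library left out, *Iars2* ranged from -0.22 to 0.27, *Nars2* from -0.14 to 0.011, *Tars2* from -0.24 to 0.013 and *Tarsl2* from -0.46 to 0.10.

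The labels do not say whether the replicate numbers pair the libraries. Deviations of same-numbered libraries had a correlation of -0.001 in Paneth and 0.075 in other cells, which cannot settle this with 2 libraries per genotype. With the number as a replicate block, 5113 genes (4993 without it) and 16 higher cytosolic members were called in Paneth cells. The counts were 4723 (4163) and 15 in other cells and 1930 (1559) and 13 in goblet-like cells. They were 1737 (1445) and 8 in cycling-like and 1535 (1332) and 14 in enterocyte-like cells.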

Other observations

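A UMI of a trypsinogen gene, a digestive protease of the pancreas, was present in 543 of 2019 and 836 of 2336 IEC-KO Paneth cells (26.9% and 35.8%), against 3 of 2020 and 2 of 1950 fl/fl Paneth cells. Enterocyte-like cells of the IEC-KO libraries held one in 64 of 682 and 79 of 708 (9.38% and 11.2%), with a median depth of 5938 and 8614 UMIs against 13782 and 20159 in Paneth cells. The part of free RNA and of depth in these shares was not tested, so having a UMI need not mark cells that make trypsinogen. Across this split the cytosolic to mitochondrial ratio was 12.3 in cells with and 12.7 in cells without a trypsinogen UMI in IEC-KO replicate 1 and 12.8 in both sets in replicate 2, and the cytosolic level was 1192 against 1239 and 1249 against 1308 CPM of the UMIs outside *Defa*. Over the 20 cytosolic members, the median log2 difference of cells with over cells without trypsinogen was -0.053 and -0.033, with 1 member (*Iars*) higher in both libraries and 10 lower in both. Over the 16 mitochondrial members it was -0.0035 and -0.074, with 2 higher in both and 6 lower in both. The matching median and shares over all genes were not computed, so the part of scaling in these small shifts was not tested. Cells with a trypsinogen UMI were deeper than those without, with a median of 15190 against 13212 and 23347 against 18661 UMIs.

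Genes of the mitochondrial ribosome (symbols starting with Mrpl or Mrps), which use the transfer RNAs that the mitochondrial synthetases charge, were counted as a group. In Paneth cells 22 of 77 were higher and 6 lower in the IEC-KO libraries, with a median log2 fold change of 0.10, where 20.2% of all genes were higher and 19.8% lower. In other cells 9 were higher and 11 lower, with a median of -0.011, where 17% of all genes were higher and 16.7% lower. Of the 76 tested, 17 were higher past an adjusted p of 0.05 by edgeR in cycling-like, 8 in goblet-like and 3 in enterocyte-like cells, where 7.19%, 8% and 7.44% of all genes were.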
